A study of Zea mays with 28 samples.

Results

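LOX1 (GRMZM2G156861), LOX3 (GRMZM2G109130), LOX4 (GRMZM2G109056) and LOX5 (GRMZM2G102760) are maize lipoxygenase genes assigned to the 9-lipoxygenases. They were taken by these 4 identifiers from a table of 39625 genes, and all 4 passed the filter on low counts that left 22339 genes. Messenger RNA was measured in leaf 4 of B73 maize, an inbred line, at a plant age of 22 days, after exposure to the grass specialist mite Oligonychus pratensis, to the generalist two-spotted spider mite Tetranychus urticae or to sandpaper wounding. Each of the 7 groups held 4 leaves, each leaf from a separate plant: O. pratensis 2 h, O. pratensis 24 h, T. urticae 2 h, T. urticae 24 h, wounding 2 h, wounding 24 h and control, where the hours run from the start of exposure or from the wounding. An enclosure held 400 adult female mites for the 2 h exposure and 200 for the 24 h exposure, so mite number and time cannot be told apart. Control leaves carried only the sticky barriers of the enclosure. Treatments began at staggered times before a single harvest, so the same 4 control leaves served both time points and all 6 comparisons with control share them.

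Lipoxygenases add oxygen to linoleic and linolenic acid, and the carbon that receives it decides the products. The 13-lipoxygenases start the pathways to jasmonates and green leaf volatiles, whereas the 9-lipoxygenases start a branch of hydroxides, ketols and ketones with roles in defence against microbes, nematodes and insects. LOX1 has been described as able to add oxygen at either carbon. LOX3 is the best studied of the group, from maize mutants with altered interactions with fungi and nematodes. LOX4 and LOX5 are close paralogs that lie on different chromosomes.

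In the gene table of a later maize assembly (Zm-B73-REFERENCE-NAM-5.0), LOX3 and LOX4 were direct neighbours and LOX1 lay directly beside LOX2, which was not analysed here. Only uniquely aligned reads were counted, so reads that matched 2 of these related genes equally well are not in the values. That gene table paired LOX2 with no identifier of the counts. Whether reads from LOX2 were counted under LOX1 was not tested. Values below are TMM-scaled read counts scaled to library size (CPM). A gene's CPM also depends on its transcript length, which was not used here, so levels are compared between groups and not between genes. Because the samples were pieces of whole leaf, a change in the cells that make a transcript and a change in transcript per cell cannot be told apart.

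Library totals ranged from 14721310 to 32891100 reads with a median of 26440384. Transcripts for leaf photosynthesis were abundant in all 28 libraries: PEP1, the carboxylase of the mesophyll, ranged between 11542 and 21484 CPM of the library total and the NADP malic enzyme of the bundle sheath between 4373 and 9538 CPM. Opaque2, a regulator of kernel storage proteins, had 0 reads in all 28 libraries, and the 27 kDa gamma zein had 0 reads in 26. All 5 leaf markers averaged lower after 24 h of either mite and 2 h after wounding than in control leaves. PPDK1, for example, averaged 32686 CPM after 24 h of O. pratensis, 25877 CPM after 24 h of T. urticae and 32613 CPM at 2 h after wounding, against 45118 CPM in control leaves. At 24 h after wounding the leaf markers also averaged lower than control, PPDK1 at 34512 CPM, except carbonic anhydrase (6862 CPM against 6498 CPM). The part of this shift in the results below was not tested.

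**Figure D1:**
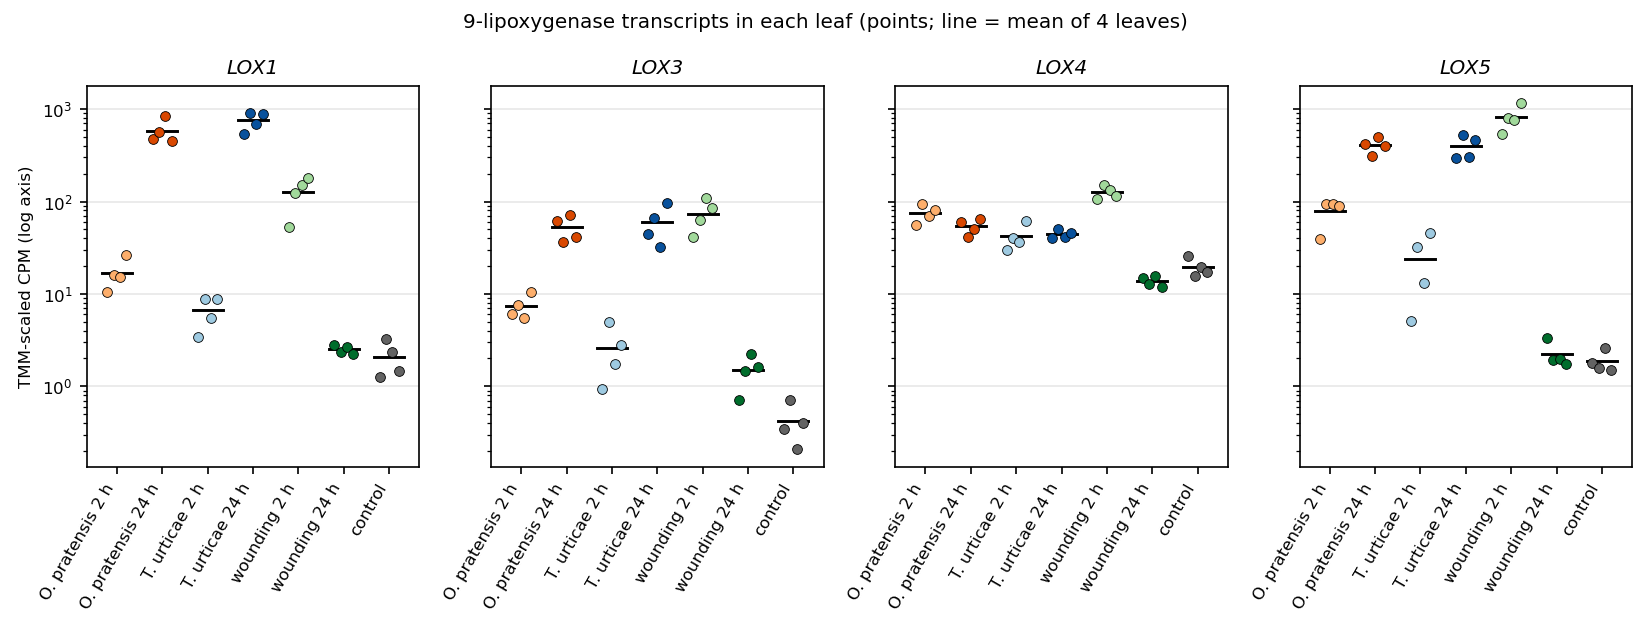
Expression of the 4 genes in each leaf. Each point is 1 leaf on a log axis of TMM-scaled CPM, the line is the mean of 4 leaves, and groups run from the mite treatments and wounding to control. LOX1, LOX3 and LOX5 spanned over 100-fold between control and their highest group, whereas the LOX4 means lay between 13.8 and 127 CPM.

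All 4 genes were upregulated against control in 5 of the 6 treatments, and none was called 24 h after wounding. A gene was called at an edgeR adjusted p of at most 0.01 over all genes and at least a 2-fold change. The 4 of 4 genes called higher stood against 5.25% of all genes after 2 h with O. pratensis, 12.3% after 24 h with O. pratensis, 2.47% after 2 h with T. urticae, 15% after 24 h with T. urticae and 17% at 2 h after wounding. Because the genes were chosen with earlier results of these data known, these counts describe them and are no independent evidence for the group. The responses differed in size and order: LOX1 was highest in leaves with mites for 24 h, LOX5 and LOX4 were highest at 2 h after wounding, and LOX3 reached overlapping levels in these 3 groups.

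LOX1 had 474, 570, 836 and 455 CPM in the 4 leaves after 24 h of O. pratensis and 533, 914, 696 and 878 CPM after 24 h of T. urticae. Control leaves had 1.25, 3.28, 2.33 and 1.46 CPM of LOX1, from 33 to 96 reads per library. Every infested leaf was thus more than 100-fold above every control leaf. The log2 fold change was 8.11 ± 0.44 (SE) for O. pratensis (edgeR adjusted p = 1.27e-13) and 8.49 ± 0.44 for T. urticae (edgeR adjusted p = 3.32e-14). Only 0.206% of tested genes had a larger fold change than LOX1 after 24 h of T. urticae.

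At 2 h, LOX1 stood at 10.5, 16.0, 15.3 and 26.2 CPM in O. pratensis leaves and at 3.42, 8.79, 5.50 and 8.75 CPM in T. urticae leaves. Both sets lay above the control leaves, the lowest T. urticae leaf by a small margin, with a log2 fold change of 3.02 ± 0.38 for O. pratensis (edgeR adjusted p = 7.68e-07) and 1.65 ± 0.38 for T. urticae (edgeR adjusted p = 0.00684). Wounded leaves at 2 h had 52.7, 122, 151 and 178 CPM of LOX1, a log2 fold change of 5.90 ± 0.40 (edgeR adjusted p = 1.20e-12). At 24 h after wounding, LOX1 had 2.82, 2.36, 2.64 and 2.24 CPM, all inside the range of the control leaves. Ordered by mean CPM, LOX1 ran control, wounding 24 h, T. urticae 2 h, O. pratensis 2 h, wounding 2 h, O. pratensis 24 h and T. urticae 24 h. The neighbours that were not separated by a call were wounding 24 h and control (log2 difference 0.26, edgeR adjusted p = 0.646), O. pratensis 2 h and T. urticae 2 h, and the 2 mite species at 24 h.

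LOX5, known in maize as a wound-responsive gene, had its highest level 2 h after wounding. Wounded leaves at 2 h had 536, 804, 765 and 1157 CPM, against 1.78, 1.57, 2.58 and 1.503 CPM in control leaves. The lowest wounded leaf exceeded the highest control leaf by over 100-fold, and the log2 fold change was 8.78 ± 0.55 (edgeR adjusted p = 2.38e-13). After 24 h, LOX5 had 423, 311, 503 and 397 CPM with O. pratensis and 295, 520, 305 and 463 CPM with T. urticae. These leaves all lay below the wounded leaves and far above the controls. Against control, the log2 fold change was 7.78 ± 0.54 for O. pratensis (edgeR adjusted p = 7.76e-12) and 7.73 ± 0.53 for T. urticae (edgeR adjusted p = 5.94e-12).

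After 2 h of mites, LOX5 had 39.2, 94.8, 93.0 and 89.5 CPM in O. pratensis leaves and 5.13, 31.8, 13.2 and 45.1 CPM in T. urticae leaves. Both sets were above all control leaves, and replicate 1 was the lowest leaf in both. The log2 fold change was 5.41 ± 0.49 for O. pratensis (edgeR adjusted p = 3.38e-09) and 3.68 ± 0.47 for T. urticae (edgeR adjusted p = 4.19e-06). Leaves 24 h after wounding had 3.35, 1.93, 1.95 and 1.74 CPM of LOX5, with 1 leaf above the control range (log2 fold change 0.27 ± 0.50, edgeR adjusted p = 0.705). By mean CPM LOX5 ran control, wounding 24 h, T. urticae 2 h, O. pratensis 2 h, T. urticae 24 h, O. pratensis 24 h and wounding 2 h. Of these neighbours, T. urticae 2 h was called above wounding 24 h and T. urticae 24 h above O. pratensis 2 h, and the other 4 pairs were not called.

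LOX3 had 61.3, 36.6, 71.5 and 41.0 CPM after 24 h of O. pratensis, 44.7, 66.6, 32.3 and 96.3 CPM after 24 h of T. urticae, and 40.9, 63.2, 108 and 84.1 CPM at 2 h after wounding. Control leaves had 0.341, 0.718, 0.208 and 0.398 CPM of LOX3, from 5 to 21 reads per library. The 3 treated groups overlapped one another and lay wholly above the controls. The log2 fold changes against control were 6.93 ± 0.52, 7.12 ± 0.52 and 7.42 ± 0.52 in that order (edgeR adjusted p = 3.56e-11, 1.67e-11 and 2.02e-12).

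At 2 h of exposure, LOX3 had 6.09, 7.51, 5.51 and 10.5 CPM with O. pratensis and 0.924, 4.97, 1.74 and 2.82 CPM with T. urticae. All 8 leaves exceeded all control leaves, with log2 fold changes of 4.10 ± 0.54 (edgeR adjusted p = 1.82e-06) and 2.58 ± 0.60 (edgeR adjusted p = 0.00708). By 24 h after wounding LOX3 had 0.713, 1.48, 2.24 and 1.61 CPM, and 3 of the 4 leaves were above every control leaf. That log2 difference of 1.82 ± 0.62 did not pass the threshold (edgeR adjusted p = 0.0253). By mean CPM LOX3 ran control, wounding 24 h, T. urticae 2 h, O. pratensis 2 h, O. pratensis 24 h, T. urticae 24 h and wounding 2 h, and the single step between neighbours that was called was that from O. pratensis 2 h to O. pratensis 24 h.

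LOX4 had the smallest fold changes of the 4 in the treatments with calls and the closest agreement among leaves, with a biological coefficient of variation of 0.188 against 0.322 for LOX1, 0.388 for LOX3 and 0.389 for LOX5. Wounded leaves at 2 h had 107, 151, 135 and 115 CPM, against 25.7, 15.7, 19.5 and 17.5 CPM in control leaves (log2 fold change 2.70 ± 0.20, edgeR adjusted p = 6.83e-12). After 2 h of mites, LOX4 had 55.6, 92.9, 70.2 and 80.2 CPM with O. pratensis and 30.2, 40.2, 36.2 and 62.3 CPM with T. urticae. The control leaves were below all of these, by log2 fold changes of 1.93 ± 0.20 for O. pratensis (edgeR adjusted p = 2.43e-08) and 1.11 ± 0.19 for T. urticae (edgeR adjusted p = 3.09e-04).

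After 24 h, LOX4 had 60.5, 40.9, 50.7 and 64.1 CPM with O. pratensis and 40.6, 49.9, 41.4 and 45.6 CPM with T. urticae. The log2 fold changes against control were 1.47 ± 0.19 (edgeR adjusted p = 8.50e-07) and 1.18 ± 0.19 (edgeR adjusted p = 1.19e-05). Neither was called when edgeR's glmTreat tested for a change beyond 2-fold (adjusted p = 0.0329 and 0.401). At 24 h after wounding LOX4 had 14.9, 12.7, 15.8 and 11.95 CPM, with 3 of 4 leaves below every control leaf (log2 fold change -0.50 ± 0.20, edgeR adjusted p = 0.0503). By mean CPM LOX4 ran wounding 24 h, control, T. urticae 2 h, T. urticae 24 h, O. pratensis 24 h, O. pratensis 2 h and wounding 2 h. Only the step from control to T. urticae 2 h was called. The step from O. pratensis 2 h to wounding 2 h had an adjusted p of 0.0013 by edgeR but was below 2-fold.

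**Figure D2:**
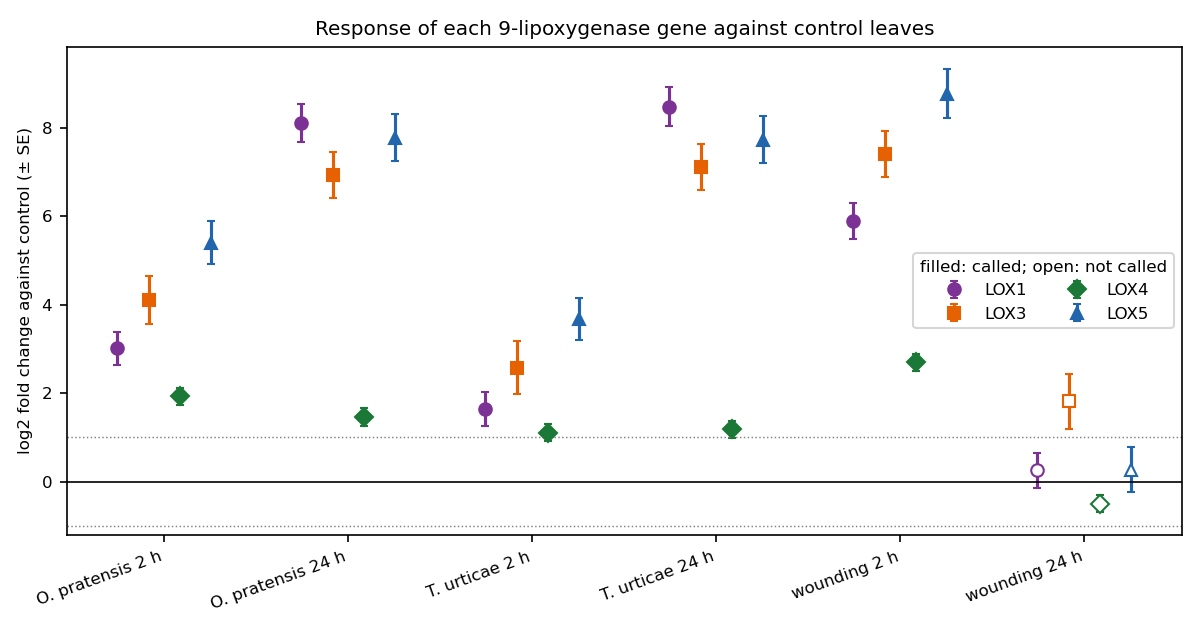
Log2 fold change against control for each gene and treatment, with the edgeR standard error and dotted lines at a 2-fold change. Filled symbols passed both thresholds; LOX1 leads in the 24 h mite groups at 8.11 and 8.49, LOX5 leads in the other groups with calls, and all 4 symbols at wounding 24 h are open.

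Of the calls against control, only ones after 2 h of T. urticae were lost when 1 library was left out. LOX5 kept its call without each of the 8 libraries in turn. LOX4 lost its call without T. urticae 2 h replicate 4 (log2 fold change 0.86). LOX1 lost its call without control replicate 1, 3 or 4 (edgeR adjusted p = 0.0342, 0.0159 and 0.0327) and without T. urticae 2 h replicate 2 or 4 (0.0329 and 0.0353). LOX3 lost its call without any 1 of the 4 control replicates (edgeR adjusted p = 0.0253, 0.0102, 0.0312 and 0.0222 in the order of replicates) and without T. urticae 2 h replicate 2 or 4 (0.0582 and 0.0216). The direction was positive in all of these fits. Within the group, replicate 1 was the lowest leaf for all 4 genes, and replicates 2 and 4 shared the highest values.

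None of the 4 genes was called 24 h after wounding, against 7.8% of all genes called higher and 0.81% lower. At an unadjusted p below 0.05 the edgeR test had 2 of the 4, LOX3 (higher) and LOX4 (lower). DESeq2 called 1 of the 4, LOX3, at a log2 fold change of 1.84 (DESeq2 adjusted p = 0.00125).

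The course over time was tested directly. Wounded leaves were lower at 24 h than at 2 h in all 4 genes, by log2 fold changes of -5.64 for LOX1, -5.60 for LOX3, -3.20 for LOX4 and -8.50 for LOX5 (edgeR adjusted p = 2.29e-12, 2.32e-11, 4.62e-13 and 3.82e-13), where 14.7% of all genes were called lower. In mite-infested leaves 3 of the 4 genes were higher at 24 h than at 2 h, against 6.76% of all genes with O. pratensis and 11.5% with T. urticae. LOX1 had the largest difference, 5.10 ± 0.37 on the log2 scale with O. pratensis (edgeR adjusted p = 8.69e-11) and 6.84 ± 0.41 with T. urticae (edgeR adjusted p = 7.75e-13). LOX3 differed by 2.83 and 4.54, and LOX5 by 2.37 and 4.05, with O. pratensis first (edgeR adjusted p between 2.61e-09 and 5.55e-05). LOX4 showed no call, at -0.47 ± 0.19 with O. pratensis (edgeR adjusted p = 0.0628) and 0.07 ± 0.19 with T. urticae (edgeR adjusted p = 0.785).

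Leaves of both mites were also set against each other. At 2 h all 4 genes had higher means with O. pratensis than with T. urticae, but none was called, against 0.68% of all genes called higher and 0% called lower. The log2 differences were 1.37 ± 0.34 for LOX1, 1.52 ± 0.42 for LOX3, 0.82 ± 0.19 for LOX4 and 1.73 ± 0.40 for LOX5 (edgeR adjusted p = 0.0296, 0.0607, 0.0172 and 0.0168). All 4 had an unadjusted p below 0.05 by edgeR, and DESeq2 called LOX1 (1.36, adjusted p = 0.00345) and LOX5 (1.73, adjusted p = 0.00474). An edgeR fit with the replicate number as a block also called LOX1 (1.38, adjusted p = 0.00499) and LOX5 (1.82, adjusted p = 0.0067). The O. pratensis leaves lay wholly above the T. urticae leaves for LOX1 and LOX3 and overlapped them for LOX4 and LOX5. LOX4 and LOX5 were called without T. urticae 2 h replicate 4 (1.08 and 2.25, edgeR adjusted p = 0.00125 and 0.00239), and LOX5 was called without O. pratensis 2 h replicate 1 (1.97, edgeR adjusted p = 0.00575).

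At 24 h the leaves of the 2 species overlapped in all 4 genes. The log2 differences of O. pratensis from T. urticae were -0.37 ± 0.31 for LOX1, -0.19 ± 0.34 for LOX3, 0.28 ± 0.19 for LOX4 and 0.05 ± 0.38 for LOX5. None was called, against 0.421% of all genes called higher and 0.479% lower. None had an unadjusted p below 0.05, and DESeq2 called 0 of 4. The change of the species difference between the time points was called for none of the 4 (0.739% of all genes were called). It was -1.74 ± 0.46 for LOX1 (edgeR adjusted p = 0.0360), -1.71 for LOX3, -0.54 for LOX4 and -1.68 for LOX5 (edgeR adjusted p = 0.0863, 0.328 and 0.0947). By unadjusted p below 0.05, LOX1, LOX3 and LOX5 passed, and DESeq2 called LOX1 (-1.71, adjusted p = 0.00959).

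At matched times, mite-infested and wounded leaves differed in opposite directions at 2 h and 24 h. At 2 h the mite-infested leaves were below the wounded leaves. With O. pratensis, 3 of 4 genes were called lower, against 12.5% of all genes: LOX1 by -2.89, LOX3 by -3.32 and LOX5 by -3.37 on the log2 scale, while LOX4 at -0.76 was under the fold threshold (edgeR adjusted p between 4.95e-08 and 0.0013). With T. urticae, all 4 were called lower, against 15% of all genes, by -4.25 for LOX1, -4.84 for LOX3, -1.59 for LOX4 and -5.10 for LOX5 (edgeR adjusted p of at most 8.77e-08). At 24 h the order was turned round. All 4 genes were called higher with O. pratensis than after wounding, by 7.85 for LOX1, 5.11 for LOX3, 1.97 for LOX4 and 7.51 for LOX5, against 7.73% of all genes (edgeR adjusted p of at most 1.91e-08). With T. urticae, the differences were 8.23 for LOX1, 5.30 for LOX3, 1.68 for LOX4 and 7.46 for LOX5, all called, against 8.49% of all genes (edgeR adjusted p of at most 1.71e-07). In that comparison 0.0492% of tested genes had a larger fold change than LOX1 and 0.0895% a larger one than LOX5.

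Leaves with mites for 24 h were then compared directly with leaves 2 h after wounding, a comparison chosen after the values were seen. These groups had the highest mean of their treatment, except for LOX4 with O. pratensis. There the mean was 74.8 CPM at 2 h and 54.1 CPM at 24 h. Leaves with O. pratensis for 24 h had 2.21 ± 0.32 more LOX1 on the log2 scale than leaves 2 h after wounding (edgeR adjusted p = 2.39e-06), and leaves with T. urticae for 24 h had 2.58 ± 0.33 more (edgeR adjusted p = 2.61e-07). LOX4 was lower by 1.23 with O. pratensis and lower by 1.52 with T. urticae, both called. LOX5 was at -0.997 and -1.04 and LOX3 at -0.49 and -0.30, none of which passed both thresholds (edgeR adjusted p = 0.0332 and 0.0245 for LOX5, 0.238 and 0.469 for LOX3). In an edgeR fit of only the 2 groups compared, LOX5 was called lower both with O. pratensis (-1.01, adjusted p = 0.00251) and with T. urticae (-1.05, adjusted p = 0.0041), and for T. urticae it was also called at an adjusted p of 0.05 in the fit of all groups. Of all genes, 7.82% were called higher and 9.97% lower with O. pratensis, and 8.64% higher and 9.96% lower with T. urticae. LOX1 was thus the one gene of the 4 that was called higher with mites at 24 h than at 2 h after wounding.

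**Figure D3:**
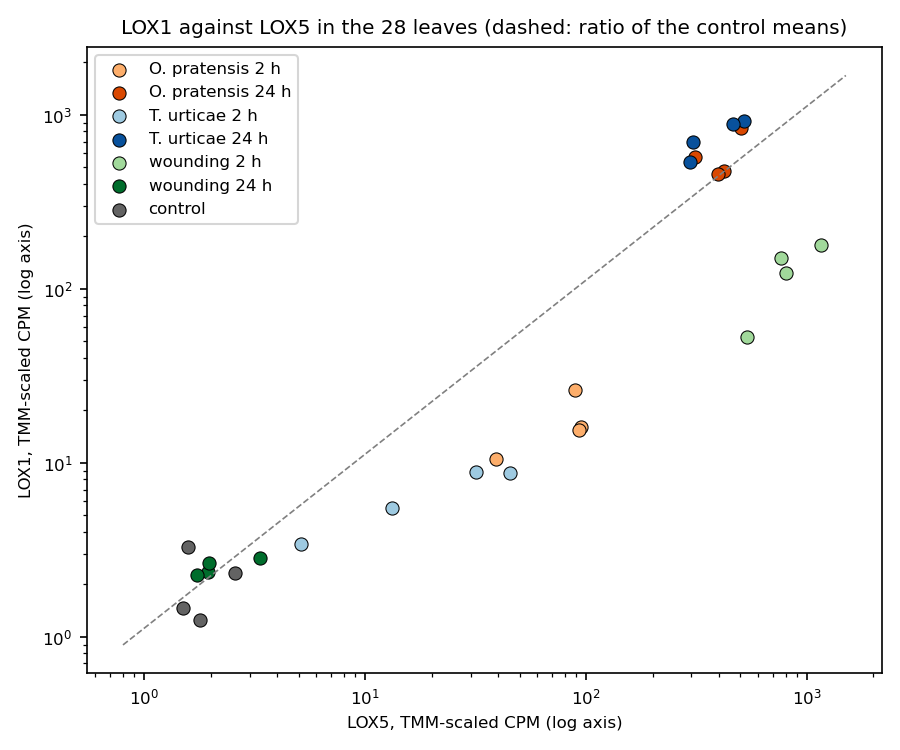
LOX1 against LOX5 in each of the 28 leaves, both as TMM-scaled CPM on log axes; the dashed line keeps the ratio of the control means. Leaves with mites for 24 h lie on or above the line at 455 to 914 CPM of LOX1, and leaves 2 h after wounding lie below it at 52.7 to 178 CPM.

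Because the 4 genes were counted in the same libraries, their reads could be compared within each leaf, free of library scaling. Of the reads of the 4 genes, LOX4 gave 5.10 ± 1.48% after 24 h with O. pratensis, 3.65 ± 0.629% after 24 h with T. urticae and 11.7 ± 3.05% at 2 h after wounding, against 81.3 ± 6.27% in control leaves (SD, n = 4 each). LOX1 gave 52.7 ± 6.60% after 24 h of O. pratensis and 60.3 ± 2.98% after 24 h of T. urticae, against 9.06 ± 4.75% in control leaves. LOX5 gave 71.2 ± 3.97% at 2 h after wounding, against 7.81 ± 1.88% in control leaves. Each of these differences had p = 0.0286 by a two-sided exact permutation test, the smallest that 4 leaves against 4 allow, and an adjusted p of 0.0490 over 24 tests. The shares of a leaf add up to the whole, so these tests are tied to one another. A lower share is also not a lower level. LOX4 itself was called higher than control after 24 h of either mite species and at 2 h after wounding.

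The make-up at 2 h differed from that at 24 h in the mite groups. LOX1 gave 9.51 ± 2.26% of the reads at 2 h of O. pratensis and 8.98 ± 1.28% at 2 h of T. urticae, both inside the range of the control leaves (4.30 to 15.4%). LOX4 and LOX5 gave 42.7 ± 5.45% and 43.5 ± 6.36% at 2 h of O. pratensis. With T. urticae at 2 h LOX4 gave 59.8 ± 12.98% and LOX5 27.8 ± 11.97%. LOX4 again gave most reads 24 h after wounding, 68.8 ± 0.729%, which was below all control leaves (exact permutation p = 0.0286, adjusted p = 0.0490).

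**Figure D4:**
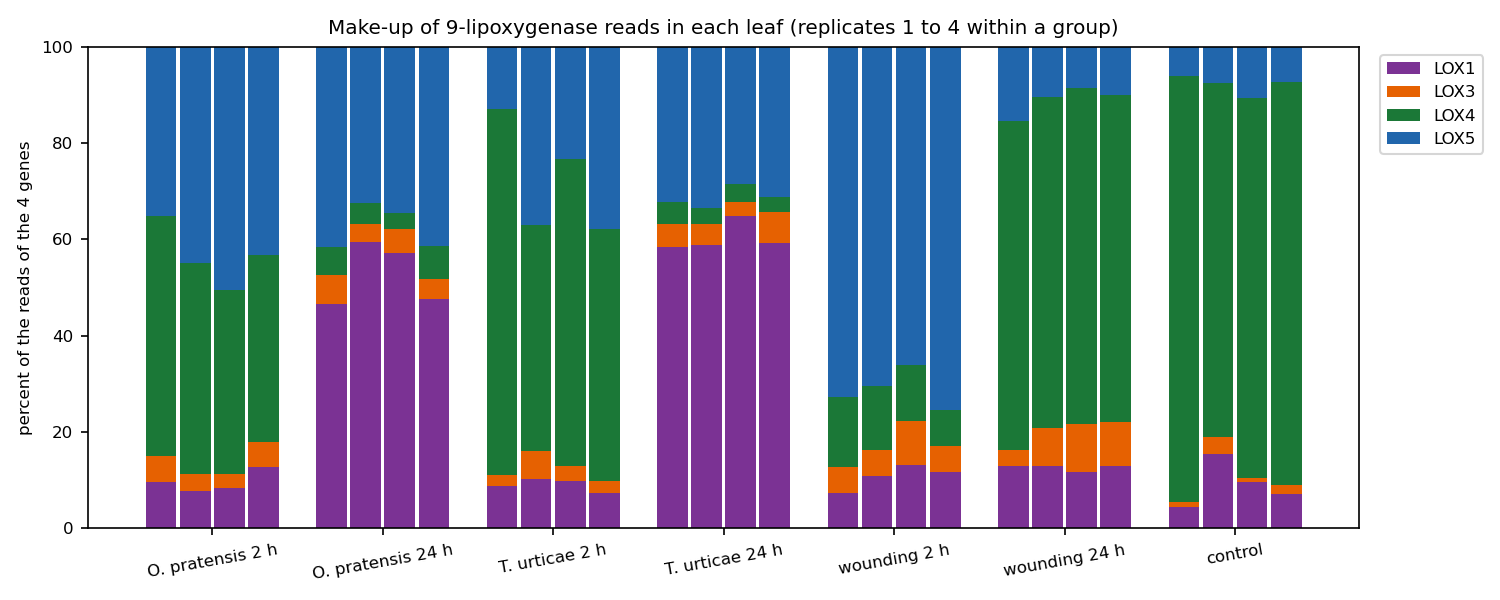
Share of each gene in the reads of LOX1, LOX3, LOX4 and LOX5, with 1 bar per leaf and replicates 1 to 4 from left to right in each group. LOX4 fills most of the control and wounding 24 h bars, LOX5 most of the wounding 2 h bars (mean 71.2%) and LOX1 between 46.5 and 64.8% of the 24 h mite bars (means 52.7 and 60.3%).

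The sum of the 4 genes in CPM was 178 ± 46.1 at 2 h and 1099 ± 243 at 24 h of O. pratensis, 75.3 ± 34.8 at 2 h and 1255 ± 310 at 24 h of T. urticae, and 1142 ± 326 at 2 h and 20.1 ± 2.49 at 24 h after wounding (SD, n = 4 each). Control leaves had 23.9 ± 3.81 CPM. As a share of the whole library the 4 genes took 0.144% of reads after 24 h of T. urticae, against 0.00226% in control leaves. The sums at 2 h after wounding and after 24 h of either mite species overlapped within their SD, although different genes gave most of the reads.

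Whether 2 genes responded unequally was tested on the log2 ratio of their reads per leaf, with 2 reads added to each count, in 36 tests. The log2 ratio of the paralogs LOX4 to LOX5 averaged -0.02 ± 0.38 (2 h) and -2.92 ± 0.29 (24 h) with O. pratensis, 1.20 ± 1.02 (2 h) and -3.12 ± 0.28 (24 h) with T. urticae, and -2.64 ± 0.46 (2 h) and 2.63 ± 0.35 (24 h) after wounding, against 3.35 ± 0.39 in control leaves (SD, n = 4 each). All groups but wounding 24 h lay wholly below the control leaves (exact permutation p = 0.0286, adjusted p = 0.0541), and for wounding 24 h the exact permutation p was 0.0571. The neighbouring genes LOX3 and LOX4 also differed, with a log2 ratio 5.31 higher after 24 h of O. pratensis, 5.70 higher after 24 h of T. urticae and 4.53 higher at 2 h after wounding than in control leaves (exact permutation p = 0.0286 each).

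The ratio of LOX1 to LOX5 was tested in the same way. It was lower than in control leaves by a log2 difference of -2.29 at 2 h of O. pratensis, -1.60 at 2 h of T. urticae and -2.87 at 2 h after wounding, with no overlap of leaves (exact permutation p = 0.0286 each). At 24 h it overlapped the control range, at 0.40 with O. pratensis (exact permutation p = 0.286) and 0.85 with T. urticae (exact permutation p = 0.114). In the direct comparison chosen after the values were seen, it was 3.27 higher after 24 h of O. pratensis and 3.72 higher after 24 h of T. urticae than at 2 h after wounding (exact permutation p = 0.0286, adjusted p = 0.0571 over 12 tests). For the ratio of LOX3 to LOX5 every treated group overlapped the control leaves (exact permutation p between 0.0571 and 0.171). In all, 19 of the 36 ratio tests reached the smallest p of 0.0286, and after adjustment this is 0.0541, so no ratio passed 0.05. At this floor the adjusted value depends only on how many tests were run and how many reached it. It therefore does not set the ratios below the shares, whose adjusted exact permutation p at the same floor was 0.0490.

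Over the 28 libraries, LOX3 and LOX5 were the 2 genes of the group most alike, with a root mean square difference of 1.10 between their centred log2 CPM values, and LOX1 and LOX4 the least alike at 2.85. Among the 22335 other genes, AOS2 (GRMZM2G002178), an allene oxide synthase that acts on lipoxygenase products, was nearest both to LOX3 (0.638) and to LOX5 (0.659). The other 2 nearest LOX3 were GRMZM2G349839 (0.691) and LOC541838 (0.718), and those of LOX5 were GRMZM2G117246 (0.697) and GRMZM2G166616 (0.730). LOX1 was most like GRMZM2G470882 (0.732), LOC100193657 (0.887) and LOC732759 (0.905). In control leaves the mean was 0.066 CPM for AOS2, 0.080 for GRMZM2G117246, 0.074 for GRMZM2G166616 and 0.049 for LOC100193657. At such low levels the prior count of 2 weighs on log2 CPM, and its part in these distances was not tested. For GRMZM2G470882 the mean was 227 CPM after 24 h of O. pratensis, 345 CPM after 24 h of T. urticae and 79.6 CPM at 2 h after wounding, against 1.03 CPM in control leaves. LOX4 had the smallest distances, to GRMZM2G149480 (0.249), GRMZM2G061537 (0.269) and GRMZM2G057466 (0.276). The distance grows with the range over which a gene varies, so the smaller values for LOX4 do not make its partners closer than those of the other genes. For GRMZM2G149480 the mean was 13.2 CPM after 24 h with O. pratensis, 14.2 CPM after 24 h with T. urticae and 44.3 CPM at 2 h after wounding, against 6.02 CPM in control leaves.

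The rest of the lipoxygenase family was counted in the same way. Of 7 other lipoxygenase genes (LOX6 to LOX12), 2 (2 h) and 1 (24 h) were called higher with O. pratensis, 1 (2 h) and 4 (24 h) with T. urticae, 3 at 2 h after wounding and 0 at 24 h after wounding, and none was called lower. Over all genes the shares called higher were 5.25% and 12.3% with O. pratensis, 2.47% and 15% with T. urticae, and 17% and 7.8% after wounding, so the single call of 7 after 24 h with O. pratensis was near the background. Their median log2 fold change was 0.79 after 24 h of O. pratensis and 0.79 at 2 h after wounding, against medians of -0.01 and -0.03 over all genes. LOX9 had the highest value of the list after 24 h of O. pratensis (1.91 ± 0.23, edgeR adjusted p = 1.72e-07). LOX8, a 13-lipoxygenase required for jasmonate synthesis in the tassel, had the highest at 2 h after wounding (3.19 ± 0.15, edgeR adjusted p = 7.43e-16). LOX12, which is also known as a 9-lipoxygenase, was the lowest in both, at -0.14 and -0.39, neither of them called.

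Of 13 genes for later steps of the oxylipin pathway, namely allene oxide synthases, allene oxide cyclases and oxophytodienoate reductases, 6 (2 h) and 9 (24 h) were called higher with O. pratensis, 2 (2 h) and 10 (24 h) with T. urticae, and 9 (2 h) and 3 (24 h) after wounding. The shares of all genes called higher, in the same order, were 5.25, 12.3, 2.47, 15, 17 and 7.8%. In wounded leaves at 2 h, 1 of them was called lower, where 8.47% of all genes were. AOS2 had the largest fold change after 24 h of O. pratensis (log2 8.14 ± 0.61, edgeR adjusted p = 4.00e-11), and AOS1 at 2 h after wounding (9.13 ± 0.42, edgeR adjusted p = 4.58e-16). OPR6 was the lowest of the list, at -0.44 after 24 h of O. pratensis, which was under the fold threshold, and called lower at -1.41 at 2 h after wounding. The list's medians were 2.32 and 3.79 in these comparisons.

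The ZIM-domain genes include the JAZ repressors, which jasmonate signalling both removes and induces. Of 8 such genes, 6 were called higher after 2 h and 5 after 24 h of either mite species, 7 at 2 h after wounding and 1 at 24 h after wounding, and none was called lower. The share of all genes was 5.25% and 2.47% at 2 h of O. pratensis and T. urticae, 12.3% and 15% at 24 h, and 17% at 2 h and 7.8% at 24 h after wounding, so 1 of 8 at 24 h after wounding was near the background. JAZ9 had the largest value after 24 h of O. pratensis (6.64 ± 0.44, edgeR adjusted p = 4.25e-12) and ZIM18 at 2 h after wounding (9.36 ± 0.45, edgeR adjusted p = 1.15e-15). ZIM32 was lowest in both, at -0.10 and 0.01, neither of them called. Between 24 h and 2 h of O. pratensis, 5 of these 8 genes were called lower, against 1.21% of all genes, whereas LOX1, LOX3 and LOX5 were called higher. Between 24 h and 2 h of T. urticae, 1 of the 8 was called higher (JAZ9, 2.05), against 11.5% of all genes, 1 was called lower (ZIM28, -1.31), against 3.44%, and 6 were not called.

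**Figure D5:**
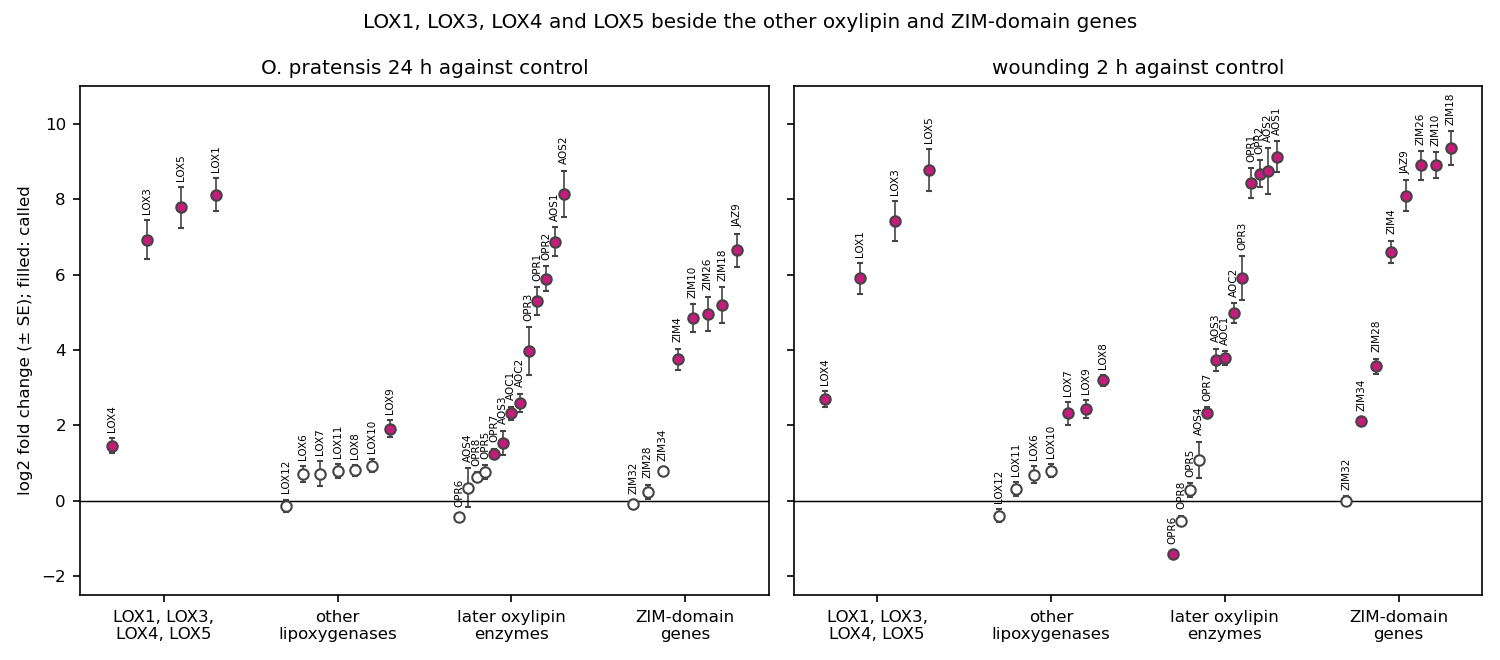
Log2 fold change with standard error for LOX1, LOX3, LOX4 and LOX5, the other lipoxygenases (LOX12, also a 9-lipoxygenase, among them), the later oxylipin enzymes and the ZIM-domain genes, after 24 h of O. pratensis and at 2 h after wounding, each against control. Filled points passed both thresholds. LOX1, LOX3 and LOX5 lie at 5.90 to 8.78, above every gene of the other lipoxygenases, whose highest value is 3.19. LOX4 lies within the range of that list: at 1.47 after 24 h of O. pratensis, below LOX9 (1.91), and at 2.70 at 2 h after wounding, below LOX8 (3.19).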

How the data were processed

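The deposited values are counts of reads per gene, which the authors made by aligning stranded paired-end poly(A) reads to the B73 RefGen_v3 genome with STAR 2.5.2b and counting uniquely aligned reads on the transcript strand with HTSeq 0.6.0, without normalization. Groups came from the sample labels. No 2 of the 28 libraries held identical counts.

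The tests used edgeR 4.0.16 (R 4.3.3). After filterByExpr (22339 of 39625 genes kept) and TMM scaling, 1 quasi-likelihood model held all libraries with 1 mean per group. Benjamini-Hochberg adjustment ran over all tested genes, and calls needed an adjusted p of at most 0.01 and a log2 fold change of at least 1 in size. Standard errors are the fold change divided by the square root of F. Log2 CPM used a prior count of 2. Ratios and shares within leaves were tested by two-sided exact permutation over 70 splits. P-values measure the spread between leaves grown and harvested together.

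The genes named were the 4 lipoxygenases, the 3 genes nearest to each by root mean square difference, and leaf and kernel markers. The highest and lowest of each list in 2 comparisons were also named. JAZ9 and ZIM28 were named as the ZIM-domain genes called between 24 h and 2 h of T. urticae. Members and lists were chosen with earlier results of these data known. The name table (Zm-B73-REFERENCE-NAM-5.0) matched 19059 identifiers, 18538 of them to 1 name. LOX2, LOX13, OPR4 and HPL1 were not paired with an identifier and are not analysed here. Gene order came from that table, whose coordinates are not printed because its assembly is not that of the counts. Sequences and transcript lengths were not used here.

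As alternatives, the tests were rerun in DESeq2 1.42.0 (without and with a prior on fold changes), and with RLE size factors, no filter, glmTreat, fits of 2 groups, an adjusted p of 0.05, a replicate block and leaving out each library. The scripts were tested on simulated counts.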

Additional observations from a re-analysis of the deposited data

Results flagged for a closer look

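The 4 leaves after 2 h of O. pratensis held 1 value of LOX5 that stood apart: replicate 1 had a log2 CPM of 5.29 (39.2 CPM), and its gap to the nearest leaf was 0.935 of the range of the group. In all, 28 sets of 4 leaves were examined this way, and chance marks about 1 in 20 of them.

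The change between 2 h and 24 h differed between mites and wounding for all 4 genes, in an interaction test chosen after the data were seen. For O. pratensis minus wounding, the log2 differences were 10.74 for LOX1, 8.43 for LOX3, 2.73 for LOX4 and 10.87 for LOX5 (edgeR adjusted p = 2.06e-14, 4.24e-12, 4.08e-09 and 6.00e-13), where 27.9% of all genes were called in either direction. For T. urticae minus wounding, they were 12.48 for LOX1, 10.14 for LOX3, 3.27 for LOX4 and 12.56 for LOX5 (edgeR adjusted p = 1.62e-15, 1.76e-13, 1.10e-10 and 3.53e-14), where 33.4% of all genes were called. The 24 h enclosures held fewer mites than the 2 h enclosures, and wounding was a single event, so time, dose and kind of damage cannot be told apart in these differences.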

How the results depend on the processing

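Over alternatives that kept all libraries, 588 of 616 values for single genes kept their direction and their side of the threshold, and none turned round. After 2 h of T. urticae the count of genes called was 1 in place of 4 under glmTreat and in a fit of only 2 groups, and between 1 and 4 without single libraries. At 24 h after wounding it was 1 in place of 0 (LOX3) at an adjusted p of 0.05, in the fit of 2 groups and with both forms of DESeq2. Between the species at 2 h it was 2 in place of 0 (LOX1 and LOX5) at an adjusted p of 0.05 and with both forms of DESeq2, and between 0 and 2 without single libraries. Against wounding at 2 h it was 1 in place of 2 under glmTreat for both species at 24 h, and the fit of 2 groups added LOX5. Across all genes, glmTreat called 659 in place of 1184 after 2 h of O. pratensis, 1571 in place of 2929 after 24 h, 220 in place of 553 after 2 h of T. urticae and 1932 in place of 4254 after 24 h, and the fit of 2 groups called 294 in place of 553 after 2 h of T. urticae. The glmTreat test asks for a change beyond 2-fold, a stricter question than any change, so fewer calls follow from its definition. Why the fit of 2 groups called fewer was not tested.

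Without single libraries, 716 of 736 values for single genes kept direction and side. Values near 0 that turned round ranged from -0.40 to 0.14 (LOX3) and from -0.072 to 0.206 (LOX5) between the species at 24 h, from -0.056 to 0.326 for LOX4 between 24 h and 2 h of T. urticae, and from -0.078 to 0.427 for the ratio of LOX1 to LOX5 at 24 h after wounding. The change in the share of LOX1 ranged from -1.13 to 2.58 percentage points at 2 h of O. pratensis, from -1.66 to 2.05 at 2 h of T. urticae and from -0.0175 to 3.69 at 2 h after wounding.

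The deviations of same-numbered replicates had a median correlation of 0.129 (range -0.25 to 0.33, 47 of 84 pairs over 0.1), against -0.0408 for different numbers, and 19 of 28 libraries correlated best with their own number. This is a hint of a shared factor from the data, although not every pair was over 0.1. The authors describe a randomized block design, but the labels do not say whether a replicate number marks a block. The main fit held no block. With the replicate block 2 genes in place of 0 were called between the species at 2 h (LOX1 1.38, adjusted p = 0.00499, and LOX5 1.82, adjusted p = 0.0067), and LOX1 in the change of the species difference (-1.72, adjusted p = 0.00851). Within numbers, all 4 genes were higher with O. pratensis than with T. urticae at 2 h in 4 of 4 pairs of leaves. The block changed no other call of the 4 genes.

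Shares per kilobase were not run because transcript lengths were not used here. By Pearson correlation in place of distance, 1 of the 3 nearest genes was shared for each of LOX1, LOX3 and LOX4. Depth limits LOX3 in control leaves most, at 5 to 21 reads.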
